A study of Arabidopsis thaliana with 4 samples.

Results

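The phloem differentiation genes described here are 9 Arabidopsis thaliana loci chosen by name as regulators or components of the developing sieve element: APL, NAC45, NAC86, NEN4, OPS, CVP2, SMXL5, SEOR1 and CALS7. All 9 were found among the 26822 usable lines of the deposited tables, and all 9 were among the 18087 genes tested, whose mean over the libraries was 1 FPKM or more. FPKM counts the fragments of a transcript per its length and per a measure of library size. RNA was sequenced from the root tip of Col-0 seedlings 5 days old, grown at 22 °C under constant light. Wild type (WT) was compared with plants that overexpress SCL28, which encodes a GRAS transcription factor, from the line labelled SCL28-OX #10, with 2 libraries for each genotype. It is a single line, and the labels do not name the promoter that drives SCL28 in it. Nor do they state that libraries of the same genotype were grown apart, so the p-values reflect the spread of these 4 libraries alone, and that spread may be technical.

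Sieve elements are the conducting cells of the phloem. In the root tip they arise from a single file of protophloem precursors, which thicken their walls, deposit callose at the future sieve pores, clear most of their contents and finally lose the nucleus, while the neighbouring companion cells keep them supplied. OPS, CVP2 and the SMXL genes act early, when the file is specified and begins to differentiate, and APL, NAC45, NAC86 and NEN4 act in sequence at its end, when the nucleus is broken down. SEOR1 and CALS7 encode parts of the finished sieve element.

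The overexpressed gene (AT1G63100), which lies at 23399391 to 23401367 on chromosome 1 of TAIR10, read 6.78 and 7.57 FPKM in WT against 2378 and 2300 FPKM in SCL28-OX, a log2 difference of 8.16 (limma adjusted p = 1.31e-10). The steps between low FPKM values implied depths of about 32800000 and 27400000 fragments for WT and 28200000 and 25900000 for SCL28-OX, assuming scaling to the mapped fragments of each library. Across all tested genes the difference between the genotypes ran with transcript length: with genes split by length into 10 groups of like size, the median log2 difference was -0.42 among the shortest and 0.48 among the longest. Spearman's rho between the difference and length was 0.68 over 17921 genes, which share libraries and are not independent replicates. Values of the members are therefore given both as measured and after a correction of every library for this trend.

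The sequences just upstream of SEOR1 and OPS are shown because these were the members still called after the length correction. Each covers the 250 bases before the RefSeq start of the gene, on the gene's strand, in the RefSeq assembly TAIR10.1, at chr3:251618-251867 (plus strand) for SEOR1 and chr3:2771376-2771625 (minus strand) for OPS. Capitals mark AAAAG or its reverse complement, which hold the core bound by DOF factors, the family of the phloem regulators PEAR1 and PEAR2.
SEOR1: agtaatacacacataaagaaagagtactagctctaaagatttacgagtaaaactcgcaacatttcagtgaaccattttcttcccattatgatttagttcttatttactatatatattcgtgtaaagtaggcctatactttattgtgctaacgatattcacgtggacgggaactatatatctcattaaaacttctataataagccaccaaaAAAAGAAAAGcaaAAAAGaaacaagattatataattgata
OPS: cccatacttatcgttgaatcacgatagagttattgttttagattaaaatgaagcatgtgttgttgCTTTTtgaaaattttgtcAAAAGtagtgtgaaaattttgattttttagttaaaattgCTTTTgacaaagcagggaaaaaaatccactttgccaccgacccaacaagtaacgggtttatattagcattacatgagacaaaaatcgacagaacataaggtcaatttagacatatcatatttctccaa
Searched on both strands, AAAAG was in these 250 bases of 9 of 9 members and of 81.3% of 27443 protein-coding genes. AACGG, the core of the element bound by MYB3R factors at mitotic genes, was found in 2 of 9 members, CALS7 and OPS, and in 20.6% of all genes. GNATATNC, which is bound by MYB factors of the type to which APL belongs, was in 0 of 9 members and in 5.46% of all genes. Matches of this kind are descriptions of the letters in the window only.

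At an adjusted p under 0.05 (limma, all genes), 5 of the 9 members were higher in SCL28-OX, where 32.7% of all tested genes were, and 0 were lower, where 33.8% of all tested genes were. The 5 were SEOR1, OPS, CALS7, SMXL5 and CVP2. Corrected for length, 2 were higher, SEOR1 and OPS, against 23.0% of all tested genes, and 0 were lower, against 22.5%. After a further correction for GC content 1 was higher, SEOR1, against 21.2%, and 0 were lower, against 20.0%. The median log2 difference of the 9 was 0.23 without and -0.02 with the length correction, and that of all tested genes was -0.01 in both cases. Of the 9, 5 had a q-value under 0.05 in the authors' deposited table, as did 61.3% of the same tested genes. At 7 of the 9 every library of a genotype lay above both of the other, as at 83.6% of all tested genes. In these bulk samples a different number of phloem cells and a different amount of RNA per phloem cell cannot be told apart.

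**Figure D1:**
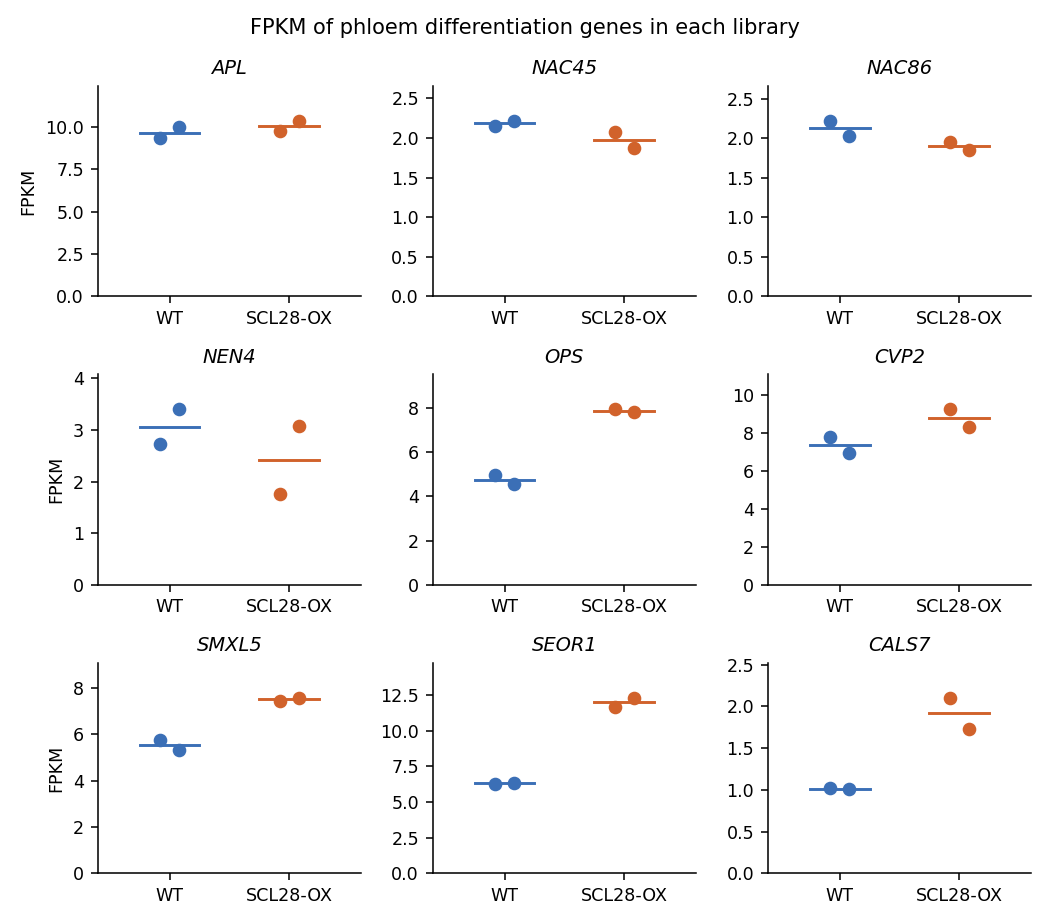
FPKM (vertical axes, each from 0) of the 9 members in each library, with points for libraries and lines for the mean of 2 libraries. SEOR1, OPS, SMXL5, CVP2 and CALS7 stood higher in both SCL28-OX libraries, while the points of APL and NEN4 overlapped between genotypes.

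The genes of the APL sequence did not pass the test in either direction. APL (AT1G79430) encodes a MYB transcription factor needed for phloem identity, and lies on TAIR10 chromosome 1, 29877228 to 29879206, with 5 exons. It stood at 9.36 and 9.99 FPKM in WT and at 9.77 and 10.35 FPKM in SCL28-OX. The libraries of the genotypes interleaved. The means were 9.67 ± 0.444 and 10.06 ± 0.413 FPKM (SD, n = 2), and the log2(FPKM + 1) difference was 0.05, with a 95% interval of -0.09 to 0.19 (limma adjusted p = 0.477). With the length correction it was 0.09 (limma adjusted p = 0.242), and with quantile normalization -0.03.

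NAC45 and NAC86 are paralogous NAC factors that APL activates and that act redundantly in enucleation. NAC45 (AT3G03200; chromosome 3, 736141 to 738527, 6 exons) stood at 2.15 and 2.21 FPKM in WT and at 2.07 and 1.87 FPKM in SCL28-OX. NAC86 (AT5G17260; chromosome 5, 5675323 to 5677912, 6 exons) stood at 2.22 and 2.03 FPKM in WT and at 1.95 and 1.85 FPKM in SCL28-OX. For both genes the SCL28-OX libraries lay just under the WT libraries, by less than the test resolves. The log2 differences were -0.10 for NAC45, with a 95% interval of -0.32 to 0.12 (limma adjusted p = 0.367), and -0.11 for NAC86, with an interval of -0.33 to 0.11 (limma adjusted p = 0.341). After the length correction they were -0.02 and -0.03. The FPKM ratio of NAC45 to NAC86 was 0.972 and 1.09 in WT and 1.07 and 1.01 in SCL28-OX, so the paralogs had nearly equal levels in every library. These low levels rested on about 61 to 92 fragments per library. NAC45 has a RefSeq transcript of 2791 bases, of which 1440 lie inside the deposited interval. With the longer value in the correction, its log2 difference was -0.36 (limma adjusted p = 0.0158), the only one of the settings tried for NAC45 in which it was called.

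NEN4 (AT4G39810) encodes an exonuclease that acts downstream of NAC45 and NAC86 in nuclear breakdown, and lies on chromosome 4, 18474608 to 18475735, with 5 exons. It stood at 2.73 and 3.40 FPKM in WT and at 1.75 and 3.07 FPKM in SCL28-OX, where the libraries differed most of all members. The second SCL28-OX library lay between the WT libraries and the first lay below them. NEN4 had the shortest transcript of the 9, at 768 bases, and about 30 to 57 fragments per library. Its log2 difference was -0.27 with a 95% interval of -0.69 to 0.15 (limma adjusted p = 0.212), and 0.07 with the length correction. A single library decided this value: it was -0.56 without SCL28-OX replicate 2 (limma adjusted p = 0.00751) and 0.01 without SCL28-OX replicate 1 (limma adjusted p = 0.959).

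Of the genes that act early in the protophloem file, OPS differed most. OPS (AT3G09070) encodes OCTOPUS, a membrane protein placed at one end of provascular and phloem cells that promotes phloem differentiation, in a gene of 1 exon on chromosome 3, 2768688 to 2771174. It stood at 4.96 and 4.54 FPKM in WT and at 7.93 and 7.82 FPKM in SCL28-OX. Both SCL28-OX libraries lay well above both WT libraries. The means were 4.75 ± 0.295 and 7.87 ± 0.0746 FPKM (SD, n = 2), a ratio of 1.66, and the log2 difference was 0.63 ± 0.07 (SE; limma adjusted p = 0.000128). It was 0.39 with the length correction (limma adjusted p = 0.00306), with a range of 0.34 to 0.44 when each library was also left out in turn, and called in each case. OPS had the highest GC content of the 9, at 49.2%, and after both corrections the difference was 0.08 (limma adjusted p = 0.415).

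CVP2 (AT1G05470) encodes a phosphatase of inositol phosphates and phosphoinositides required for continuous vein and protophloem files, on chromosome 1, 1607357 to 1611703, with 12 exons. It stood at 7.74 and 6.91 FPKM in WT and at 9.22 and 8.31 FPKM in SCL28-OX. The higher WT library was close to the lower SCL28-OX library. The log2 difference was 0.23 ± 0.08 (SE; limma adjusted p = 0.0303). Leaving out WT replicate 2 (0.16; limma adjusted p = 0.167) or SCL28-OX replicate 1 (0.16; limma adjusted p = 0.154) ended this call. Testing every gene regardless of level gave a limma adjusted p of 0.0635, and fitting no variance trend gave 0.0504. Corrected for length, the difference was -0.18 (limma adjusted p = 0.0947).

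SMXL5 (AT5G57130) encodes a relative of heat shock proteins that, with SMXL3 and SMXL4, is needed for phloem formation, on chromosome 5, 23144980 to 23149568, with 4 exons. It stood at 5.76 and 5.32 FPKM in WT and at 7.44 and 7.57 FPKM in SCL28-OX, and the groups did not overlap. The log2 difference was 0.38 ± 0.07 (SE; limma adjusted p = 0.0016). Corrected for length, it was -0.08, with a 95% interval of -0.24 to 0.07 (limma adjusted p = 0.349).

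Of the genes for parts of the finished sieve element, SEOR1 showed the largest difference of the 9 on the log2(FPKM + 1) scale. SEOR1 (AT3G01680) encodes a filament protein that fills mature sieve elements (phloem protein), on chromosome 3, 251981 to 255513, with 9 exons. It stood at 6.30 and 6.35 FPKM in WT and at 11.7 and 12.3 FPKM in SCL28-OX. The libraries within each genotype were close together, and the genotypes were far apart. The means were 6.33 ± 0.0354 and 12.0 ± 0.454 FPKM (SD, n = 2), a ratio of 1.90, and the log2 difference was 0.83 ± 0.06 (SE; limma adjusted p = 1.36e-05). It was 0.58 with the length correction (limma adjusted p = 0.000218) and 0.40 after both corrections (limma adjusted p = 0.00155). With the length correction and each library left out in turn it lay between 0.54 and 0.61 and was called each time.

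CALS7 (AT1G06490) encodes the callose synthase that lines sieve pores with callose, and is listed as GSL07 in the deposited tables, on chromosome 1, 1978762 to 1989409, with 41 exons. It stood at 1.02 and 1.01 FPKM in WT and at 2.10 and 1.73 FPKM in SCL28-OX. Both SCL28-OX libraries were above WT but differed from each other more than the WT libraries did. The ratio of means was 1.89, close to that of SEOR1, and the log2(FPKM + 1) difference was 0.53 ± 0.11 (SE; limma adjusted p = 0.00342). At this low level the pseudocount sets the size of the difference, which was 0.85 with 0.1 FPKM and 0.20 with 5 FPKM added. With 5 FPKM added, the difference of OPS was 0.40 and that of SMXL5 0.25, and all 3 were still called. With 6165 bases CALS7 had the longest transcript of the 9, and with the length correction its difference was -0.24, with a 95% interval of -0.50 to 0.01 (limma adjusted p = 0.107).

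**Figure D2:**
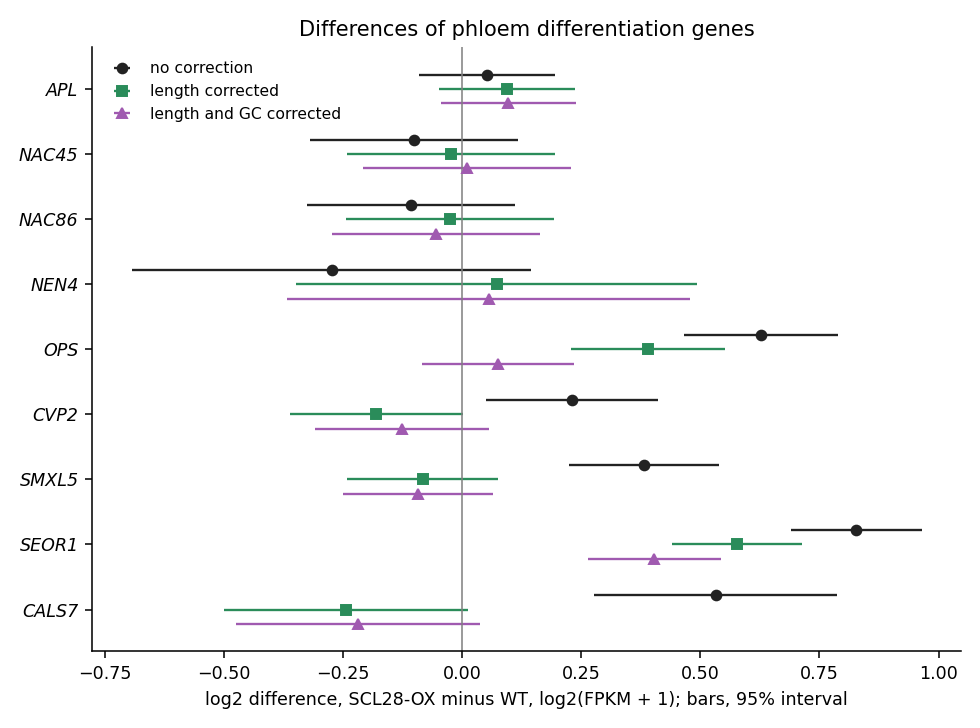
Log2(FPKM + 1) difference between SCL28-OX and WT (horizontal axis) for each member, with its 95% interval from limma, without a correction (circles), with the length correction (squares) and with the length and GC correction (triangles). The interval of SEOR1 stays above 0 in all 3, that of OPS in the first 2, and those of CALS7, SMXL5 and CVP2 in the first alone.

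By place among the tested genes of the same length group, SEOR1 and OPS stood highest of the members and CVP2 lowest. With both length and GC content corrected, OPS was at 0.08 and not called, while SEOR1 was at 0.40 and called. The median log2 difference of the 1792 tested genes of 2300 to 2880 bases was 0.25, and SEOR1 was above 98.05% of them and OPS above 94.98%. Among the 1792 genes of 2881 to 16368 bases the median was 0.48, and CALS7 was above 60.2% of them, SMXL5 above 31.1% and CVP2 above 11.9%. Among the 1792 genes of 1380 to 1557 bases, with a median of -0.08, APL was above 70.3%, NAC45 above 44.9% and NAC86 above 43.7%. NEN4 was above 58.8% of the 1792 genes of 746 to 972 bases, whose median was -0.32. The place of CALS7 is not one among genes of its own length: its 6165 bases compare with a median of 3507.5 bases in that group. By the length-corrected difference CALS7, at -0.24, was the lowest of the members, and CVP2 was at -0.18. These places in the range are descriptions of the same fit and carry no test of their own.

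**Figure D3:**
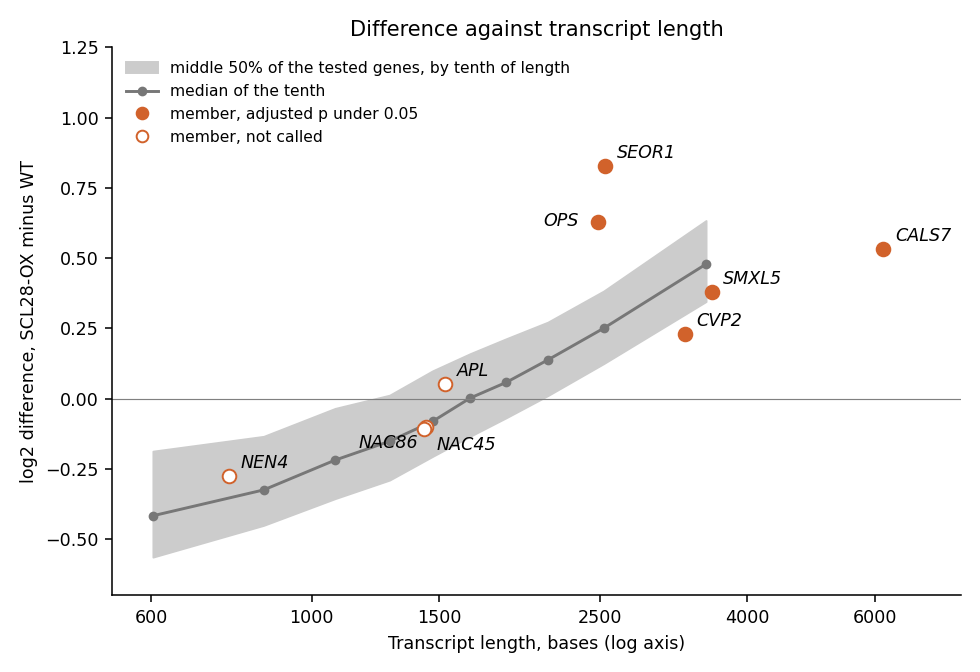
Log2(FPKM + 1) difference (vertical axis) against transcript length in bases (log axis), with the median and the middle 50% of tested genes in 10 equal groups by length (line and band) and the 9 members as points, filled where called. SEOR1 and OPS lie above the band, CVP2 lies below it, and APL, NAC45, NAC86 and NEN4 lie inside it, while SMXL5 and CALS7 lie to the right of the last median.

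The order of levels among the members changed at the top. In WT the FPKM, which is per length, ran from APL (9.67) through CVP2 (7.33), SEOR1 (6.33), SMXL5 (5.54), OPS (4.75) and NEN4 (3.06) to NAC45 (2.18), NAC86 (2.12) and CALS7 (1.01). Of these neighbours, the libraries of NAC45 and NAC86 overlapped. In SCL28-OX SEOR1 (12.0) stood first, followed by APL (10.06), CVP2 (8.77), OPS (7.87) and SMXL5 (7.51). The libraries of NEN4 (2.41), NAC45 (1.97), CALS7 (1.92) and NAC86 (1.90) overlapped between neighbours there. The FPKM ratio of SEOR1 to APL was 0.673 and 0.636 in the WT libraries and 1.196 and 1.19 in the SCL28-OX libraries. The spread between replicates was small against this shift, though SEOR1 is the longer of these transcripts. An exact permutation test of 2 against 2 libraries cannot give a p below 0.333, so none is given for these ratios.

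Of 10 paralogs of the members, 3 rose by limma, none fell and 7 stayed uncalled, around a median log2 difference of 0.04. The 3 are a share near the 32.7% of all tested genes that were higher, and 33.8% of all tested genes were lower. SEOR2, the tandem neighbour of SEOR1 that encodes the partner protein of the same filaments, stood at 8.26 and 8.70 FPKM in WT and at 14.5 and 14.0 FPKM in SCL28-OX. Its log2 difference was 0.69 (limma adjusted p = 2.5e-05), and 0.39 with the length correction (limma adjusted p = 0.00104), so both SEOR genes were higher in both fits. The FPKM ratio of SEOR2 to SEOR1 was 1.31 and 1.37 in WT and 1.24 and 1.14 in SCL28-OX. No 50-base word of the SEOR1 or SEOR2 transcript inside the deposited intervals occurs in a transcript of another gene, and the same held for the other 8 members. Exact matches of that length can thus be told apart, while the placing of reads with mismatches was not examined.

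OPL1, a relative of OPS, rose by a log2 difference of 0.36 (limma adjusted p = 0.00572), or 0.26 with the length correction and -0.05 with the length and GC correction. Its length-corrected call was not kept in every fit that left out a library (limma adjusted p up to 0.175). SMXL3 rose by 0.32 (limma adjusted p = 0.00249), and stood at 0.01 with the length correction. SMXL4, at 2.2001 and 2.38 FPKM in WT and 2.18 and 2.40 FPKM in SCL28-OX, had a difference of 0.0004, and -0.37 with the length correction (limma adjusted p = 0.0147). CVL1, the paralog of CVP2, was at -0.04, and at -0.35 with the length correction (limma adjusted p = 0.0219). With the length and GC correction SMXL4 was at -0.41 (limma adjusted p = 0.0105) and CVL1 at -0.29, not called (limma adjusted p = 0.0506). The length-corrected calls of SMXL4 and CVL1 were not examined with libraries left out. NEN1, NEN2 and NEN3 were at 0.02, 0.05 and 0.04, and at -0.02, 0.04 and -0.02 with the length correction. Corrected for length, 2 of the 10 paralogs were higher, SEOR2 and OPL1, and 2 lower, shares near the 23.0% and 22.5% of all tested genes.

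Genes listed for companion cells and transport were higher where tested. Of 7 listed, 6 were tested, and all 6 rose in both fits and after the length and GC correction. Of all tested genes 32.7%, 23.0% and 21.2% were higher in these fits. The list was drawn up with earlier results of these data known, so this contrast is a description and no test. The median log2 difference of the 6 was 0.73, or 0.67 with the length correction. The companion cell gene sAPL, counted above among the paralogs, was not called. It stood at 2.38 and 3.08 FPKM in WT and at 2.67 and 3.07 FPKM in SCL28-OX (0.06; limma adjusted p = 0.678). With the length correction it was at 0.25 (limma adjusted p = 0.11), and with GC as well at 0.33 (limma adjusted p = 0.056). SWEET12, a sucrose exporter gene of the phloem parenchyma, stood at 2.67 and 2.48 FPKM in WT and at 7.13 and 7.25 FPKM in SCL28-OX, a log2 difference of 1.195 (limma adjusted p = 7.08e-06). SUC2, the sucrose loader of companion cells, stood at 5.85 and 6.39 FPKM in WT and at 13.6 and 14.6 FPKM in SCL28-OX, a log2 difference of 1.09 (limma adjusted p = 6.51e-06). SWEET11 stood at 1.503 and 1.74 FPKM in WT and at 4.09 and 3.05 FPKM in SCL28-OX (0.79; limma adjusted p = 0.00086). These 3 were at 1.34, 0.99 and 0.92 with the length correction. AHA3, a proton pump gene of companion cells, was at 0.67, FTIP1, a gene for a carrier of the flowering signal, at 0.57 and PP2-A1, a phloem lectin gene, at 0.17. After the length correction they were at 0.26, 0.19 and 0.42, and the call for FTIP1 was then lost without WT replicate 1, WT replicate 2 or SCL28-OX replicate 2 (limma adjusted p = 0.0869, 0.0906 and 0.0957). SULTR1;3, a sulfate transporter gene of the phloem, was under the minimum for testing, at 0.552 and 0.682 FPKM in WT and 0.890 and 1.06 FPKM in SCL28-OX.

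Among regulators and proteins of the early sieve element, 1 of 7 rose and 1 fell, around a median of -0.09, where 32.7% and 33.8% of all tested genes did. With the length correction 1 was higher and 1 lower, where 23.0% and 22.5% of all tested genes were. ENODL9, an early nodulin-like protein gene of sieve elements, stood at 21.2 and 23.5 FPKM in WT and at 34.4 and 35.4 FPKM in SCL28-OX, a log2 difference of 0.62 (limma adjusted p = 3.32e-05) and of 0.91 with the length correction. TMO6, a DOF factor gene, fell by 0.16 on the log2 scale (limma adjusted p = 0.0137), a call lost with the length correction (-0.08) and without WT replicate 1 or SCL28-OX replicate 1 (limma adjusted p = 0.0842 and 0.0664). The related DOF genes PEAR1 (-0.13), PEAR2 (-0.09) and HCA2 (0.15) and the NAC gene NAC020 (-0.20) did not pass the test, and with the length correction were at 0.01, -0.06, 0.18 and -0.0009. CHER1, a choline transporter-like gene needed for sieve pores, was at 0.0037, and at -0.20 with the length correction (limma adjusted p = 0.0335). Its call was not examined with libraries left out.

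The peptide CLE45 and its receptor kinase BAM3 hold back protophloem differentiation. Around this pathway a list of 10 genes was taken, not all of which need act that way. Of these, 4 rose and 3 fell, around a median of -0.02, shares near the 32.7% and 33.8% of all tested genes. Corrected for length, 1 was higher and 1 lower, where 23.0% and 22.5% of all tested genes were. BAM3 stood at 21.9 and 22.8 FPKM in WT and at 35.0 and 34.9 FPKM in SCL28-OX, a log2 difference of 0.62 (limma adjusted p = 7.11e-06), or 0.21 with the length correction (limma adjusted p = 0.00373). The receptor kinase genes RPK2 (0.57) and CLERK (0.41) also rose, and were at 0.09 and 0.12 with the length correction, where neither was called. With the length and GC correction CLERK was at 0.23 and called again (limma adjusted p = 0.0224), and RPK2 was at -0.03. The receptor gene CLV2 rose by 0.27 (limma adjusted p = 0.0376), and was at 0.04 and not called with the length correction (limma adjusted p = 0.726). Its uncorrected call was also lost without WT replicate 1 or SCL28-OX replicate 1 (limma adjusted p = 0.201 and 0.16). The peptide gene CLE25, at 6.78 and 6.61 FPKM in WT and 3.93 and 3.99 FPKM in SCL28-OX, fell by 0.63 on the log2 scale (limma adjusted p = 0.000111), or by 0.30 with the length correction (limma adjusted p = 0.00856). This second call did not survive leaving out WT replicate 1 (limma adjusted p = 0.0524), nor correcting for GC as well (-0.20; limma adjusted p = 0.0505). CLE45 (-0.44) and MAKR5 (-0.30), which amplifies the CLE45 signal, fell as well, and were at -0.14 (limma adjusted p = 0.32) and -0.21 (limma adjusted p = 0.0507) with the length correction. MAKR5 then lay at the threshold, and was at -0.29 without SCL28-OX replicate 2. With the length and GC correction MAKR5 was at -0.09 (limma adjusted p = 0.327) and CLE45 at -0.01 (limma adjusted p = 0.937). Over all 34 other phloem genes, 33 were tested, 14 rose and 4 fell, where 32.7% and 33.8% of all tested genes did. With the length correction 10 were higher and 4 lower, where 23.0% and 22.5% of all tested genes were. The companion cell and transport list held 6 of those higher in each fit.

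**Figure D4:**
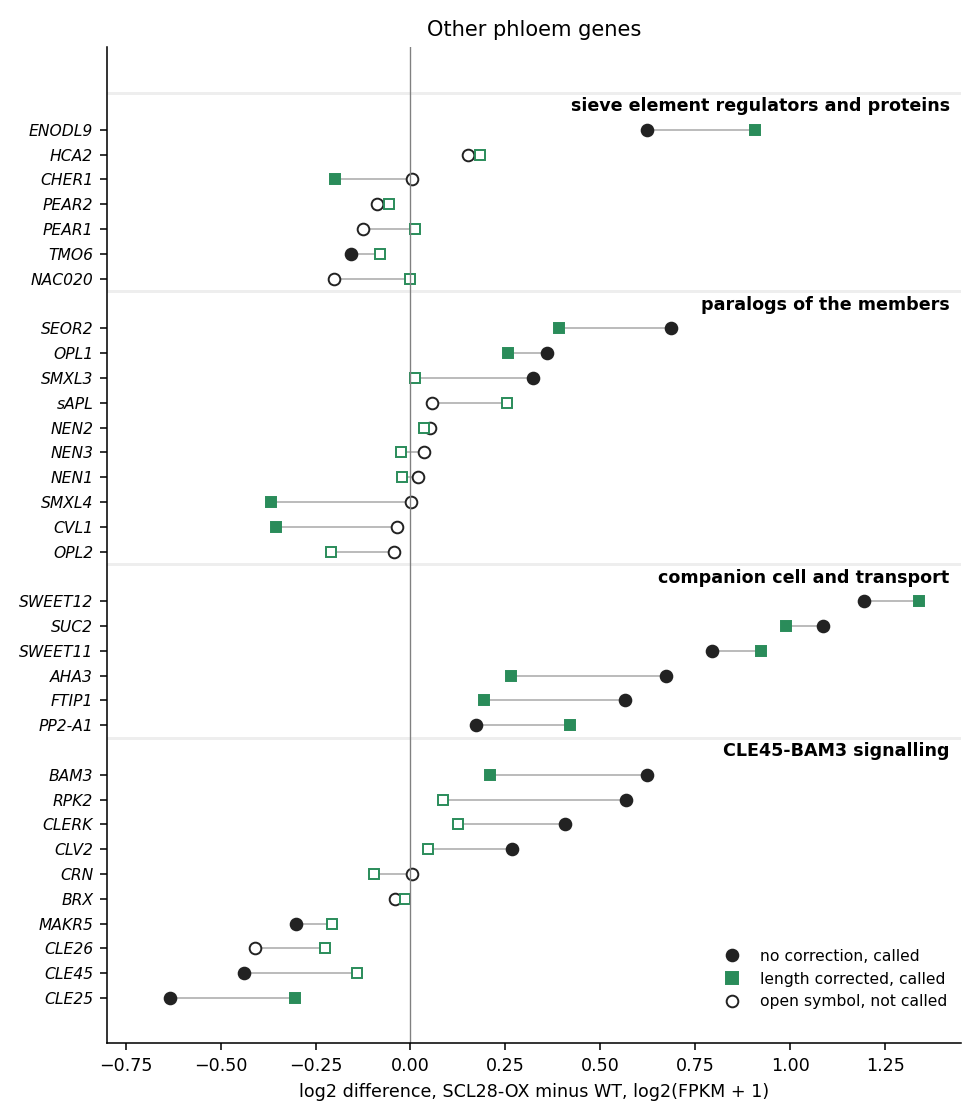
Log2(FPKM + 1) difference between SCL28-OX and WT (horizontal axis) for the 33 tested other phloem genes in 4 lists, without (circles) and with (squares) the length correction, filled where the limma adjusted p was under 0.05. All 6 companion cell and transport genes lie to the right of 0 in both fits, while the other lists hold values on both sides.

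Markers of other cells moved too. Summed FPKM of the 7 companion cell and transport genes was 72.8 and 76.0 in WT and 106.6 and 108.4 in SCL28-OX, and that of the 9 members was 42.2 and 41.8 in WT and 53.9 and 54.9 in SCL28-OX. Sums of FPKM here carry no length correction. With it the median log2 difference was 0.67 for the tested companion cell and transport genes and -0.02 for the members. Summed FPKM of 9 xylem genes was 519.8 and 511.2 in WT and 483.8 and 489.7 in SCL28-OX. TED6, a short transcript of 523 bases, carried the lower sum: without it the other 8 summed to 352.8 and 356.8 FPKM in WT and to 377.5 and 381.1 FPKM in SCL28-OX. Of the 9, 5 rose and 2 fell, where 32.7% and 33.8% of all tested genes did. CESA7, a cellulose synthase gene of xylem walls, was at 0.82 and TED6, a gene of tracheary elements, at -0.58. With the length correction CESA7 was at 0.39 and TED6 at -0.14, and 5 were higher and 1 lower, though the call of TED6 then failed in at least 1 fit without a library (limma adjusted p up to 0.0738). All 11 markers of root zones were present in each library, from 2.196 FPKM (WOX5, of the stem cell niche) to 267 FPKM (CASP1, of the differentiated endodermis), so the samples held meristem and differentiated root. Of the 11, 4 rose and 3 fell, where 32.7% and 33.8% of all tested genes did. The root hair gene COBL9 was at 0.70 and the root cap gene BRN1 at -0.59. Those that rose were genes of root hair and endodermis, and those that fell were genes of meristem and root cap. The 4 not called were further genes of meristem, root cap and endodermis, so these zones did not move as a whole. Corrected for length, 4 of the 11 were higher and 4 lower, with COBL9 at 0.55 and BRN1 at -0.31. Beside these counts and those of xylem, 23.0% of all tested genes were higher with this correction and 22.5% lower. Of 4 shoot markers, 2 were tested, RBCS1A (0.99) and PSAD1 (0.83), and both rose, also with the length correction (1.23 and 1.15). Of all tested genes 32.7% and 23.0% were higher in these fits. The light-harvesting genes CAB2 and LHB1B1 were under the minimum for testing, at 0 to 0.209 FPKM in every library. Summed FPKM of the 4 was 34.6 and 33.6 in WT and 65.4 and 67.3 in SCL28-OX. What part such shifts have in the differences of the phloem genes was not tested.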

How the data were processed

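Per the labels' protocols, TRI reagent and then columns were used for root RNA, and libraries were made with a stranded TruSeq kit. No source used here says if strand entered the counting. The authors deposited FPKM per gene and library, and a comparison table that holds, per the file headers, group FPKM with a p-value and q-value for every gene. CASAVA 1.8.2, TopHat2 2.0.13, Cuffdiff 2.2.0 and TAIR10 are named in the submitters' processing notes. Of 26883 lines, 60 have columns moved by a space inside a gene name and were not used, and 1 is not analysed here. FPKM are not counts, so log2(FPKM + 1) of genes averaging 1 FPKM or more over the 4 libraries was tested with limma 3.58.1 in R 4.3.3 (eBayes with trend, two-sided, Benjamini-Hochberg adjustment over 18087 genes, threshold 0.05), a scale that understates changes of low genes. Only the fit without corrections was tried on simulated data, which held few changed genes and no length trend, so the corrections were not tested in that way.

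Transcript lengths and upstream sequences came from RefSeq TAIR10.1. Of the lines matched to a locus, 14.58% had both ends equal to RefSeq's, after adding 1 to the deposited start. Lengths are those of the longest transcript within the deposited interval. The length correction subtracted, in each library, a lowess trend (span 0.3) of its deviation from the mean of 4 libraries on log2 length, and the GC correction did the same on GC content afterwards. Genes with no matched length were left out, which left 17921. Depth was estimated from steps between low FPKM values, over genes with a single RefSeq transcript and matching ends, where 93.6% to 94.6% of values were whole within 0.1 fragments. It was not checked against mapped fragments.

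The members and lists were chosen with earlier results of these data known. The text names every member, SCL28, genes of the 4 phloem lists, and up to 2 called genes each of the xylem, root zone and shoot lists. CESA4 is named besides, as a gene whose direction turned with a correction. WOX5, CASP1, CAB2 and LHB1B1 are named for the range of their list, after their values were seen. Alternatives were other pseudocounts, filters and scalings, no variance trend, a block for the replicate number, and fits without each library. The full RefSeq length and the length correction combined with a block or a left-out library were chosen after seeing the data.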

Additional observations from a re-analysis of the deposited data

How the results depend on the processing

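Without a correction for length, the 9 members were tried under 104 combinations of gene and alternative, of which 96 kept the direction and the side of the threshold, 5 lost a call, 1 gained one and 2 turned direction. All 5 losses were of CVP2. The gain was NEN4, and leaving out each library in turn gave NEN4 -0.56 to 0.0085. APL turned to -0.028 with quantile normalization. The count of members lower was 0 to 1 with each library left out, and 1 (NAC45) with the correction by the full RefSeq transcript.

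With the length correction 2 members were higher in place of 5 (4 to 5 with each library left out), also with the full RefSeq transcript, with the replicate number as a block and with each library left out in turn (2 to 2), and with the length and GC correction 1 was. CALS7 turned to -0.24 with the length correction, -0.24 with the full RefSeq transcript, -0.22 with the length and GC correction and -0.34 to -0.15 with each library left out. In the same order CVP2 turned to -0.18, -0.18, -0.13 and -0.25 to -0.11, SMXL5 to -0.083, -0.054, -0.093 and -0.13 to -0.033, and NEN4 to 0.073, 0.052, 0.056 and -0.21 to 0.35. The block left these length-corrected values at -0.24, -0.18, -0.083 and 0.073. With no length correction and each library left out, CALS7 ran from 0.44 to 0.62, CVP2 from 0.16 to 0.30, SMXL5 from 0.33 to 0.43 and SMXL3 from 0.28 to 0.36. NAC45 was at 0.0105 with the length and GC correction. Length corrected and with each library left out, NAC45 ran from -0.074 to 0.028, NAC86 from -0.067 to 0.016, SMXL3 from -0.026 to 0.052 and CLV2 from -0.041 to 0.13. With the length and GC correction TMO6 turned to 0.024, SMXL3 to -0.058, OPL1 to -0.055, RPK2 to -0.034 and CESA4 to -0.020, and SMXL3 to -0.043 with the full RefSeq transcript. A minimum mean of 5 FPKM gave no value for CALS7, NAC45, NAC86 and NEN4.

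Other phloem genes higher numbered 14 (13 to 14 with each library left out), 9 with a minimum mean of 5 FPKM (where fewer genes are tested), and 8 to 10 length corrected with each library left out. Those lower numbered 4 (3 to 5 with each library left out), then 2 with the length and GC correction and 1 to 4 with each library left out. Of all genes, 5911 were higher and 6112 lower, and with each library left out 5164 to 5343 and 5415 to 5732. Lower with the length correction were 4028, with the full transcript 4064 and with the block 3972. The length and GC correction gave 3795 higher and 3578 lower, and the length correction with each library left out 3087 to 3646 higher and 2762 to 3515 lower. The cause was not tested.

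Replicate numbers are shared by the genotypes, but nothing in the labels says that they mark a shared batch. Deviations of same-numbered libraries correlated at 0.122 over 18087 genes, a single comparison where groups hold 2 libraries. With the replicate block and no length correction 5 members were higher and 0 lower, the same counts as without it. The block with the length correction called MAKR5 lower (-0.21; limma adjusted p = 0.0186), which the length correction alone did not. Depth limits NAC45, NAC86 and NEN4 most, with 30 to 92 fragments in each library if the implied depths hold.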
